A study of Mus musculus with 3 samples.

Results

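The genes described here encode parts of the axoneme, the microtubule core of the sperm flagellum, and the factors that assemble it. They were chosen by name from the 31053 genes of the expression table. A gene was taken if its symbol was made of Dnah, Dnaic, Dnaaf, Rsph, Cfap, Drc or Tekt and a number, or if it was Dnal1, Dnali1 or Dnal4, and 67 genes met this rule. By role they comprised 15 dynein heavy chains, 5 dynein intermediate and light chains, 4 dynein assembly factors, 8 radial spoke genes, 3 genes of the nexin-dynein regulatory complex, 26 Cfap (cilia and flagella associated protein) genes, 5 tektins and 1 non-coding gene, Dnah2os, which lies antisense to Dnah2. The rule uses names and no measured value.

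In an axoneme, dynein heavy chains are the motors that slide one microtubule doublet along the next, intermediate and light chains tether and tune these motors, and Dnaaf proteins fold and pre-assemble them in the cytoplasm. Radial spokes and the nexin-dynein regulatory complex carry signals between the central pair and the dyneins, and tektins are filaments that strengthen the doublets. A spermatid begins to build its axoneme soon after meiosis, and in mouse testis many of the transcripts are already made in spermatocytes.

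Testicular cells of adult C57BL/6 mice were profiled with a 10x Genomics 3' droplet assay, with 1 library each from wild type mice (WT), mice without GRTH (GRTH-KO, KO) and GRTH knock-in mice (GRTH-KI, KI). GRTH, also called DDX25, is a germ cell RNA helicase. KO mice lack it. By the study, KI mice carry a human form of the gene with an arginine-to-histidine change. This leaves the unphosphorylated protein but not the phosphorylated one. The labels give an age of 8 weeks and 1 mouse per library. The study's methods instead describe mice of 8 weeks and older and pooled testes of 2 mice. The exact age is thus uncertain, and animals cannot be separated within a library. With 1 library per genotype there was no replicate check, no p-value could be given, and a difference between genotypes cannot be told apart from a difference between libraries. Intervals below are 95% intervals of the UMI counts and cover counting error only.

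The libraries held 5863 WT, 4063 KO and 1572 KI cells after filtering, with a median of 5129, 3973 and 11742 UMIs per cell. WT and KO shared 16 cell barcodes, WT and KI 36, KO and KI 8, and 5 were in all libraries. Cells were clustered with the axoneme genes left out, and clusters were named from marker lists, which gave pachytene-like and late spermatocyte-like cells (together SP-like), round spermatid-like cells (RS-like, clusters 2, 4 and 7) and elongated spermatid-like cells (ES-like, clusters 1 and 5). WT contributed 487 SP-like, 1544 RS-like and 2268 ES-like cells, KO 713, 1631 and 474, and KI 287, 478 and 192. Cluster 11 carried spermatogonial and early meiotic markers with neither list ahead. By pseudotime cluster 3 lay after late spermatocyte-like cells and before RS-like clusters 2 and 7. It was level with RS-like cluster 4 in WT (0.8038 and 0.8042) and in KO (0.8059 in both), so pseudotime does not order clusters 3 and 4 there. In KI cluster 3 came before cluster 4 (0.810 and 0.821). Cluster 8 (529 WT, 189 KO and 115 KI cells), led by Calm2, Cks2 and Hmgb2 and with Sycp3, Hormad1 and Rsph1 among its leading genes, had a mean standardised marker level of 0.97 for pachytene and 0.85 for late spermatocytes, but had more markers of another class among its leading genes. Clusters 11, 3 and 8 stayed unnamed, and cluster 8, which held more WT cells than the SP-like class, entered no class. There the 67 axoneme genes summed to 12053 (WT), 13814 (KO) and 13326 CPM (KI). Ddx25 transcript was at 215 CPM (the UMIs of a gene scaled to all UMIs of the class) in SP-like cells of WT, 0.324 CPM in KO and 89.4 CPM in KI, and RS-like cells held 102 CPM in WT and 125 in KI with 0 UMIs in KO, which allows up to 0.367 CPM. The KO library thus had the transcript at or near 0. The KI gene is human by the study and the reads were counted on the mouse build, so how the KI level compares with WT is uncertain. Barcodes without a cell gave the 67 axoneme genes 9075 (WT), 12341 (KO) and 11221 CPM (KI). That is a share of their UMIs and not an amount per droplet. These barcodes, of UMI rank 45000 to 90000, held 8243195, 8934855 and 7656801 UMIs over all genes in total. Sertoli-like cells, which build no flagellum, gave 10063, 12011 and 9470 CPM, or 37.3, 53.3 and 76.1 UMIs per cell. By axoneme UMIs per droplet, the barcodes without a cell thus held far fewer than Sertoli-like cells. Free RNA adds UMIs to every droplet, so low levels are set beside the UMIs per Sertoli-like cell. Other cells without a flagellum gave fewer. Macrophage-like cells gave 8.08 (WT), 13.6 (KO) and 27.1 (KI) UMIs per cell, and Leydig-like cells 8.47, 14.2 and 44.85. The Sertoli-like value is thus not a measure of the free RNA in every droplet. In what follows, at background means at or under the Sertoli-like value, and whether such UMIs were free RNA was not tested.

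All 67 genes matched the GENCODE vM21 annotation (GRCm38, the mm10 build of the files) by identifier and name, and 66 were annotated as protein coding. They lay on 16 chromosomes. The promoter table of RefSeq for GRCm38.p6 held 55 of them. The core of the X-box, a site bound by RFX factors that drive many ciliary genes, was searched on both strands as GTTGCC. The search covered the 250 bases before the first start listed for each gene in that table. It stood in 15 of the 55 promoters (27.3%) and in 10.5% of the 27025 promoters of all genes. Of members that peaked in spermatocytes of WT, 10 of 27 (37.0%) held it, and of members that peaked later 5 of 26 (19.2%). Dnah7a, Dnah7b and Dnah7c, near-identical copies, are all among the 10, so these promoters may not be independent. The cAMP response element, searched as TGACGTCA, stood in 1 member promoter (1.82%, against 1.62% of all promoters), its shorter form TGACG, which any full element also contains, in 8 (14.5%, against 17.9%), and the forkhead core GTAAACA in 4 (7.27%, against 3.09%). Such a match is a description of letters and not a bound site. The 6 promoters below show these letters in members whose values are given later, from an early heavy chain to the last tektin. Each runs 5′ to 3′ on the strand of the gene and ends at the base before the start, with the X-box core or its reverse complement in capitals. Dnah7a and Drc1 held 1 copy, which began 200 and 11 bases before the start, Cfap20 held 1 at 94 bases, Tekt1 held 2 at 35 and 15 bases and Tekt2 2 at 96 and 22 bases. Tekt5 held none.
Dnah7a promoter, chr1:53706785-53707034, minus strand: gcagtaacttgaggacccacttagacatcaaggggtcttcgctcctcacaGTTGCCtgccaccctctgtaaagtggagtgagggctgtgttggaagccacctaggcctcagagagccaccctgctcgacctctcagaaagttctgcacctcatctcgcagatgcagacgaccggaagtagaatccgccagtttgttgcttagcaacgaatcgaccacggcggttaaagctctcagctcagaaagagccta
Cfap20 promoter, chr8:95434870-95435119, minus strand: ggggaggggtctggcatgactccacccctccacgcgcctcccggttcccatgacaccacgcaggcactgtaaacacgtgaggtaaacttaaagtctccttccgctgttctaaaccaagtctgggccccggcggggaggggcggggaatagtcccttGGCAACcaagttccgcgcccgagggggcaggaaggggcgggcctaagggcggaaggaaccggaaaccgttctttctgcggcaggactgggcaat
Drc1 promoter, chr5:30281143-30281392, plus strand: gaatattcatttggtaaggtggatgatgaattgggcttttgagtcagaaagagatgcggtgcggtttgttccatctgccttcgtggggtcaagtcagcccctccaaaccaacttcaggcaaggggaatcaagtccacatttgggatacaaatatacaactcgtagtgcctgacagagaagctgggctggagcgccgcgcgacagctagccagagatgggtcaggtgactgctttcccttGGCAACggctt
Tekt1 promoter, chr11:72361883-72362132, minus strand: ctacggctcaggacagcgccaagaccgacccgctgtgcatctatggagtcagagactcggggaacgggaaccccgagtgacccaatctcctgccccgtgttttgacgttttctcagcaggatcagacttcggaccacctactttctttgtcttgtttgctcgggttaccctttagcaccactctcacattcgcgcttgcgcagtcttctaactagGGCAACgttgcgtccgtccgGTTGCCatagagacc
Tekt2 promoter, chr4:126325689-126325938, minus strand: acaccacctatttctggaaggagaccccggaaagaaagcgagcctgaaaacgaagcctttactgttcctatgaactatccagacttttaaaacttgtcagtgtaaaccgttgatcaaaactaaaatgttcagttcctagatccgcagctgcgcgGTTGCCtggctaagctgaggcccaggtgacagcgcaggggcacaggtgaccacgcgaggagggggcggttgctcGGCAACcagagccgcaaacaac
Tekt5 promoter, chr16:10395456-10395705, minus strand: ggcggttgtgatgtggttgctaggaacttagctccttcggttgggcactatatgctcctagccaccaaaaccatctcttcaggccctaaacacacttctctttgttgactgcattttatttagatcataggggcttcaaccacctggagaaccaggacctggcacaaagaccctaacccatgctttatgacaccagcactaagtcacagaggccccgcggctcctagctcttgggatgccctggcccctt

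The first question was when along spermatogenesis each gene came on and when it was highest. Classes were ordered as cluster 11, pachytene-like, late spermatocyte-like, cluster 3, RS-like and ES-like. A gene's peak is the class with its highest CPM, and its onset the first class at 25% or more of that peak. Both are thus read from a share of the UMIs. WT cells held 30035 UMIs in pachytene-like, 25158 in late spermatocyte-like, 14592 in cluster 3 and 7355 in RS-like cells. The highest UMIs per cell can therefore lie in an earlier class than the peak. In WT, 63 of the 67 genes had the required 50 UMIs and 5 CPM in their peak class. The others were Rsph4a and Dnah2os, with 6 and 8 UMIs over the 6 classes, Dnah11 with 54, and Dnaaf5, whose highest class, cluster 11, held 33.0 CPM but under 50 UMIs. Rsph4a is a spoke head gene known from motile cilia of the airway.

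Axoneme transcripts were mostly a product of spermatocytes and of the cells just after them. In WT, 25 genes peaked in pachytene-like cells, 8 in late spermatocyte-like cells, 21 in cluster 3 and 9 in RS-like cells, with 0 in cluster 11 and 0 in ES-like cells. Spermatocyte-like cells thus held 52.4% of the peaks and cluster 3 with RS-like cells 47.6%, whereas among the 11668 other genes that passed these classes held 29.1% and 35.3% of the peaks. The peak was clear of the next highest class by counting error for 43 of the 63 genes. Onset came earlier than the peak, with 16 genes at 25% of their peak in cluster 11, 36 first in pachytene-like cells, 5 in late spermatocyte-like cells, 5 in cluster 3 and 1, Tekt5, in RS-like cells. Cluster 11 thus held 25.4% of the onsets and pachytene-like cells 57.1%, where among other genes these classes held 56.3% and 15.3%. The median gene stood at 12.3% of its peak in cluster 11, 72% in pachytene-like, 66.6% in late spermatocyte-like cells, 82.4% in cluster 3, 42.1% in RS-like cells and 5.04% in ES-like cells. In ES-like cells 47 of the 63 genes (74.6%) were under 10% of their peak, beside 54.8% of other genes, and 62 (98.4%) were lower than in RS-like cells, beside 86.6% of other genes. With TMM scaling 11 axoneme genes and 47% of other genes had the higher level in ES-like cells.

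**Figure D1:**
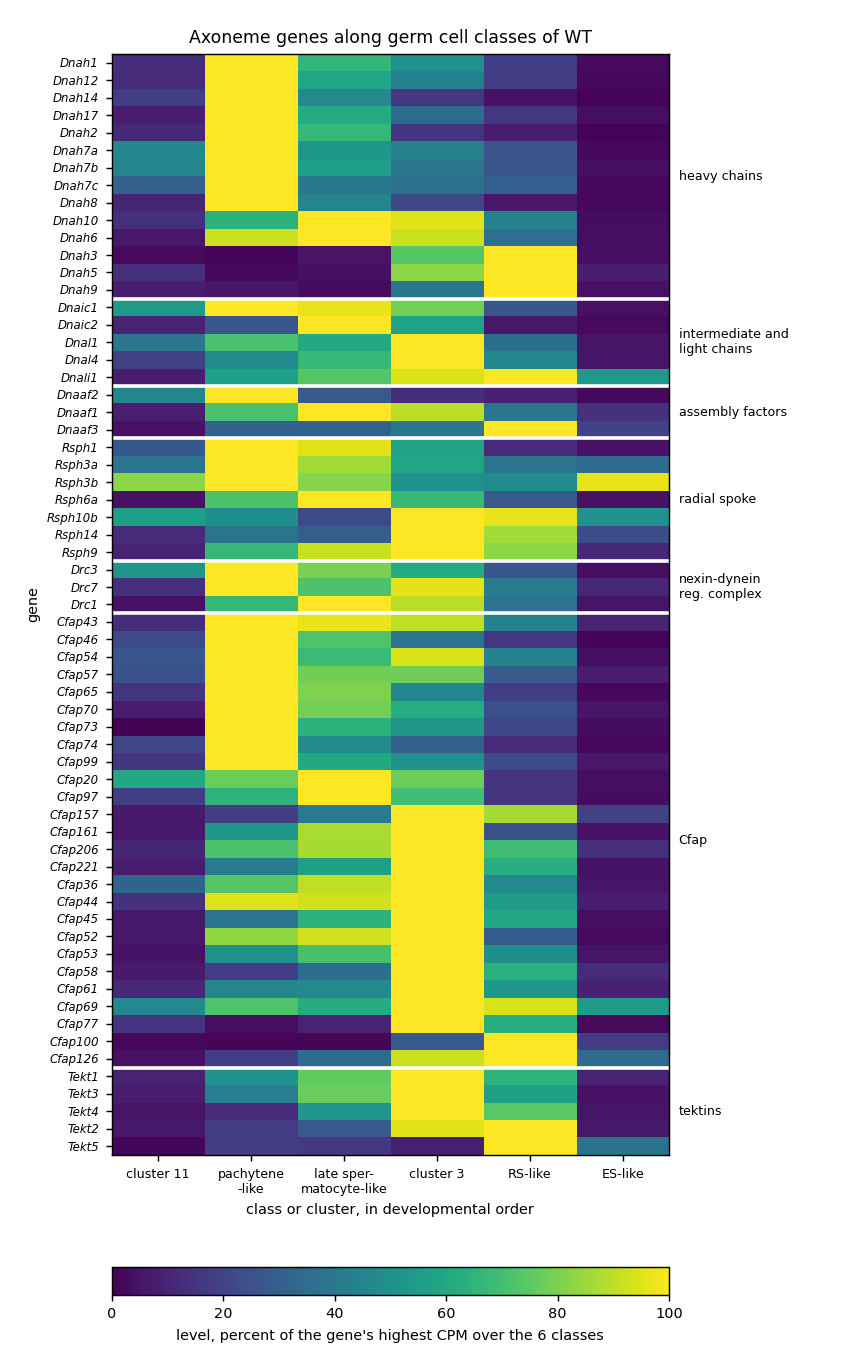
Level of the 63 axoneme genes that passed in WT (rows, grouped by subfamily) in 6 germ cell classes in developmental order (columns), as percent of each gene's own peak CPM. Yellow marks the peak (100) and dark blue the lowest level: 9 heavy chains are yellow in pachytene-like cells, the tektins in cluster 3 or RS-like cells, and 47 genes are under 10% in ES-like cells.

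The subfamilies did not peak together. Of the 14 heavy chains that passed, 9 peaked in pachytene-like and 2 in late spermatocyte-like cells. The remaining 3, Dnah3, Dnah5 and Dnah9, peaked in RS-like cells. The tektins were late: Tekt1, Tekt3 and Tekt4 peaked in cluster 3 and Tekt2 and Tekt5 in RS-like cells, and the median tektin stood at 18.2% of its peak in pachytene-like cells, where the median heavy chain was at its peak (100%). Dnah5 was at 0.295 CPM in pachytene-like cells, 10.96 in cluster 3 and 13.3 in RS-like cells, the last pair not separated by counting error. Dnah9 was at 2.06, 13.7 and 35.0 CPM, and both had their onset in cluster 3. Dnah14 and Dnah17 ran the other way, from 739 and 251 CPM in pachytene-like cells to 35.6 and 40.9 in RS-like cells. Among the late Cfap genes, Cfap100 was at 2.36 CPM in pachytene-like cells, 44.0 in cluster 3 and 157 in RS-like cells. Cfap genes were split, with 11 of 26 at their peak in spermatocyte-like cells and 15 in cluster 3 or RS-like cells. The 3 regulatory complex genes peaked in pachytene-like (Drc3, Drc7) or late spermatocyte-like cells (Drc1).

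Rsph1, a radial spoke gene with the most UMIs of its group, stood in WT at 754 CPM in cluster 11, 2742 in pachytene-like, 2634 in late spermatocyte-like cells, 1586 in cluster 3, 336 in RS-like cells and 136 in ES-like cells. Dnah8, an outer arm heavy chain of the sperm tail, rose from 195 CPM in cluster 11 to 1892 in pachytene-like cells and fell to 865, 406, 131 and 42.0 CPM in the classes after them. Both were spermatocyte transcripts. Dnah8, which had no part in the clustering, was also among the leading genes of the pachytene-like cluster. That ranking uses the same counts and so restates the peak. Cfap36 had a later and flatter course, with 408, 928, 1146, 1270, 595 and 70.5 CPM from cluster 11 to ES-like cells. Dnaaf1, the assembly factor with the most UMIs, peaked one class earlier and was at 77, 656, 923, 828, 362 and 130 CPM. Drc1, which holds the regulatory complex to the doublet, was at 7.14, 102, 153, 137, 58.2 and 8.71 CPM.

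The tektins marked the later steps. Tekt1 was at 64.2 CPM in cluster 11, 349 in pachytene-like cells, 514 in late spermatocyte-like cells, 679 in cluster 3, 440 in RS-like cells and 64.5 in ES-like cells. Tekt4 was at 29.4, 63.9, 282, 542, 403 and 30.0 CPM in the same classes. Tekt2 was at 85.7 CPM in pachytene-like cells and at 471 and 493 CPM in cluster 3 and RS-like cells, which its counting intervals did not separate. Tekt5 stood apart from the other tektins: it was at 21.8 CPM in pachytene-like cells, 10.7 in cluster 3, 120 in RS-like cells and 45.5 in ES-like cells, the only member of the 63 with its onset as late as RS-like cells. Dnah3, an inner arm heavy chain, was late among the motors but had its onset in cluster 3, with 4.52 CPM in pachytene-like cells, 177 in cluster 3, 239 in RS-like cells and 10.1 in ES-like cells.

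Some genes had early or late levels that need the free RNA beside them. The 5 genes with the earliest onset by the naming rule were Rsph1, Cfap36, Cfap69, Dnah7c and Cfap20. In cluster 11 of WT, Cfap20 gave 2.11 UMIs per cell against 0.797 in Sertoli-like cells, Dnah7c 1.44 against 0.350 and Cfap69 1.36 against 0.634. Rsph1 gave 7.68 against 7.44 and Cfap36 4.16 against 3.41, so these latter genes stood only a little above background in cluster 11. Of all 67 genes, 28 gave more UMIs per cell in cluster 11 of WT than in Sertoli-like cells, and all 16 genes with their onset there were among them. In ES-like cells of WT only 10 of 67 did, and in RS-like cells 53. Over all genes, WT held 10189 UMIs per cell in cluster 11, 7089 in ES-like and 7355 in RS-like cells. Sertoli-like cells of WT held 3710. No share of other genes is given beside these counts, so they are not read as a trait of the axoneme genes.

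The genes with the largest part of their level in ES-like cells of WT were Rsph3b, Tekt5, Dnali1, Rsph10b and Cfap69. Rsph3b was at 38.8 CPM in pachytene-like cells, 18.8 in RS-like cells and 37.4 in ES-like cells, and it was the one gene of the 63 whose level in ES-like cells exceeded that in RS-like cells. Dnali1, an inner arm light chain, was at 194, 340 and 183 CPM in these classes. Cfap69 was at 204, 264 and 155 CPM. Rsph3b and Rsph3a are near-identical copies, as are Dnah7a, Dnah7b and Dnah7c, so reads could be split between copies and their values are uncertain.

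**Figure D2:**
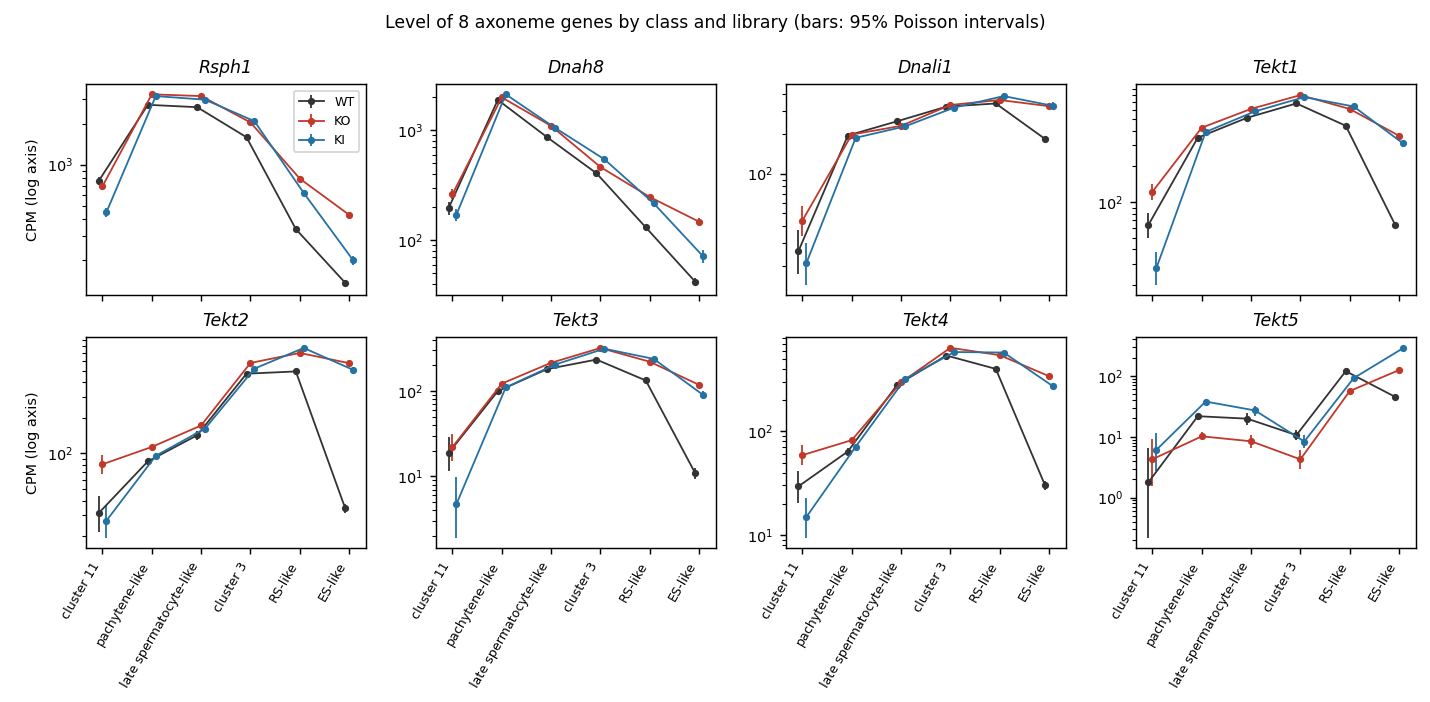
Level of 8 axoneme genes in CPM (log axis) by germ cell class and library, with bars for 95% Poisson intervals. The libraries lie close together from pachytene-like cells to cluster 3 for all genes shown but Tekt5, and in ES-like cells WT is the lowest of the 3 for each gene.

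By peak class KO and KI followed nearly the same course as WT, but onset and level differed in places. Onset fell in cluster 11 for 16 of the 64 genes that passed in KO (25%) and 9 of 64 in KI (14.1%). WT had 16 of 63 (25.4%), and other genes 56.3% (WT), 57.4% (KO) and 56% (KI). The median gene stood in cluster 11 at 12.3% of its peak in WT, 16.3% in KO and 6.59% in KI. In ES-like cells it stood at 5.04, 21.6 and 16.4%. Among the 63 genes that passed in all 3 libraries, 51 had the same peak class in KO as in WT and 50 the same in KI as in WT. In KO 12 peaked in a later class and in KI 13, with 0 in an earlier class in either. Among 10755 other genes 20.2% peaked later in KO and 18.7% in KI, close to the 19.0% and 20.6% of the axoneme genes, and 4.77% and 4.62% peaked earlier. Dnah6, Dnah10 and Drc1 moved from late spermatocyte-like cells to cluster 3 in both mutants, Rsph9, Rsph10b and Cfap69 from cluster 3 to RS-like cells in both, and Dnaaf3 and Tekt5 from RS-like to ES-like cells in both. Among genes that moved in both mutants Cfap221 moved furthest. It went from cluster 3 in WT (65.5 CPM) to ES-like cells in KO (79.4 CPM) and KI (86.6 CPM), where WT held 3.30 CPM. Of these 9 genes only Tekt5 had a peak clear of counting error in all 3 libraries. The ES-like cells of the mutants were not the same cells as in WT: nearly all were in cluster 1 (466 of KO and 191 of KI, with 8 and 1 in cluster 5), whereas WT had 1136 and 1132, and within cluster 1 62.2% of all genes tested were at least 2-fold higher in KO than in WT and 56.6% in KI. Of the 58 axoneme genes that passed there, 51 were at least 2-fold higher in KO and 38 in KI, and 0 were 2-fold lower in either (background 3.35% and 2.84%). Summed over the 67 genes, ES-like cells of WT held 1678 CPM, those of KO 6402 and those of KI 5451. By UMIs per cell WT gave 11.9, under its Sertoli-like cells (37.3), whereas KO gave 73.1 and KI 91.1, above theirs (53.3 and 76.1).

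The next comparison asked whether the genotypes already differed in spermatocytes. They barely did. In SP-like cells 60 of the 67 genes had a mean of at least 5 CPM over the libraries, and their median log2 ratio to WT (CPM with 1 CPM added) was 0.05 in KO and 0.08 in KI, beside −0.04 and −0.00 over all 9285 genes tested. Past 2-fold higher were 0 of the 60 genes in KO and 0 in KI (background over all genes 0.118% and 0.258%), and at least 2-fold lower were 1 in KO, Tekt5, and 0 in KI (background 0.872% and 2.04%). The 60 log2 ratios ranged from −1.07 to 0.46 in KO and from −0.41 to 0.73 in KI. Rsph1 held 2713 CPM in SP-like cells of WT, with 3244 for KO and 3142 for KI, or 0.26 and 0.21 higher on the log2 scale. Dnah8 was at 1617, 1715 and 1922 CPM and Dnah12 at 257, 305 and 325 CPM. For these genes the counting intervals of WT and the mutants did not overlap, but the differences were small.

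Tektins 1 to 4 were a little higher in SP-like cells of KO, with log2 ratios of 0.29 for Tekt1, 0.38 for Tekt2, 0.31 for Tekt3 and 0.29 for Tekt4, and in KI of 0.12, 0.10, 0.07 and −0.04. Tekt5 was the exception in both mutants and went opposite ways. It was at 21.3 CPM in SP-like cells of WT (296 UMIs), 9.63 in KO (238 UMIs) and 35.9 in KI (760 UMIs), a log2 ratio of −1.07 (−1.30 to −0.83) in KO and 0.73 (0.54 to 0.92) in KI. KI thus stood 1.80 above KO on the log2 scale. In empty barcodes Tekt5 was 0.692 times the WT level in KO and 1.85 times in KI, and in Sertoli-like cells it gave 0.0863 (WT), 0.105 (KO) and 0.561 (KI) UMIs per cell, where SP-like cells gave 0.608, 0.334 and 2.65. The part of free RNA in the difference was not tested.

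In RS-like cells the axoneme genes were higher in both mutants than in WT. Of the 67 genes 63 had a mean of at least 5 CPM over the libraries, and 61 of them were above WT in KO and 62 in KI, beside 70.0% (KO) and 68.9% (KI) of all genes tested. The median log2 ratio reached 0.78 for KO and 0.72 for KI. Over all 10945 genes tested the median was itself 0.37 in KO and 0.32 in KI, so relative to all genes the axoneme genes stood 0.41 higher in KO and 0.41 in KI. Without integration this margin was 0.0145 in KO (0.0822 against 0.0677 over all genes) and 0.121 in KI, with 1 gene at least 2-fold higher in each (all genes 7.07% in KO and 6.05% in KI), so it depends on how the cells were grouped. At least 2-fold higher were 19 of the 63 in KO (30.2%, with 14.7% of all genes) and 9 in KI (14.3%, with 10.5% of all genes). At least 2-fold lower were 1 in KO, Tekt5 (background 4.04%), and 0 in KI (background 5.62%). Dnah11 and Dnaaf5 passed the minimum only through the mutants, and without them 17 genes in KO and 7 in KI were past 2-fold, with medians of 0.77 and 0.70. With TMM scaling 2 genes were past 2-fold in each mutant, beside 4.33% (KO) and 3.76% (KI) of all genes. With no minimum level, 64 of all 67 genes were above WT in KO and 64 in KI (all genes 67.4% and 60%), with medians of 0.77 and 0.67. Summed over the 67 genes, RS-like cells of WT held 7968 CPM, those of KO 12158 and those of KI 12147, and the UMIs per cell were 58.6, 60.9 and 161. The Sertoli-like cells gave 37.3, 53.3 and 76.1, so KO stood only a little above them, and 53 genes in WT, 45 in KO and 57 in KI gave more UMIs per RS-like than per Sertoli-like cell. The KI cells had more UMIs over all genes as well, and no share of other genes stands beside the 53, 45 and 57.

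**Figure D3:**
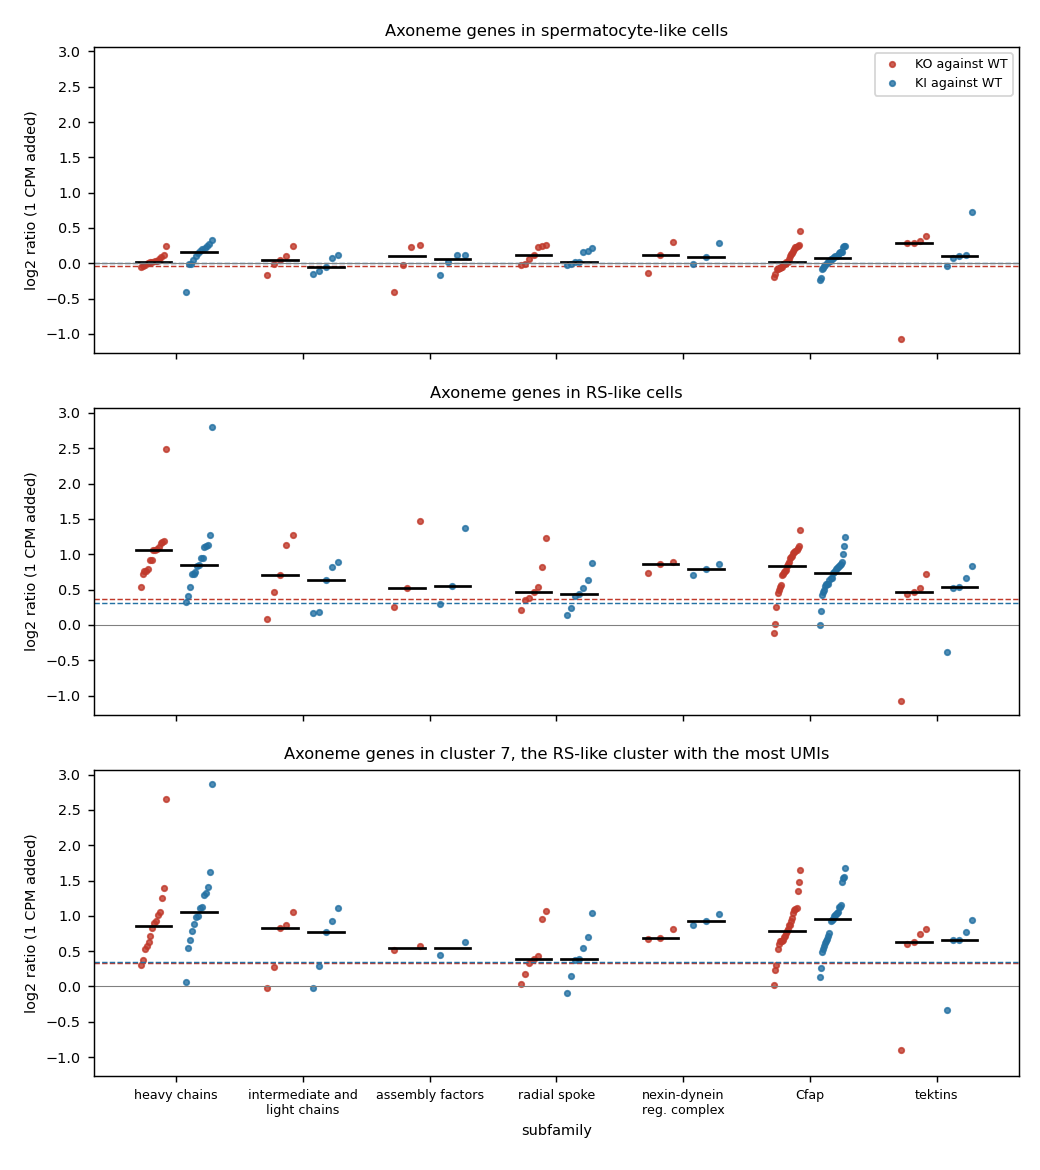
Log2 ratio of each axoneme gene to WT by subfamily (KO and KI side by side) in SP-like cells, RS-like cells and cluster 7. Black bars are medians of a subfamily and dashed lines medians of all genes tested, and in RS-like cells each of the 7 subfamily medians lies above the dashed lines, from 0.46 for radial spokes to 1.05 for heavy chains in KO.

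By subfamily, the 15 heavy chains had a median log2 ratio of 1.05 in KO and 0.84 in KI in RS-like cells, and without Dnah11 of 0.99 and 0.84. Medians were 0.86 and 0.79 for the 3 regulatory complex genes, 0.83 and 0.74 for the 25 Cfap genes that passed, and 0.71 and 0.64 for the 5 intermediate and light chains. They were lower for the 3 assembly factors that passed (0.53 and 0.55, and 0.39 and 0.43 without Dnaaf5), the 7 radial spoke genes that passed (0.46 and 0.44) and the 5 tektins (0.47 and 0.54). Each of the 7 medians was above the median of all genes in both mutants, but without integration 5 were in KO and 6 in KI, and in cluster 4 alone 5 were in KO. Scaled with TMM factors, which set the median of all genes to −0.04 in KO and −0.05 in KI, the medians were 0.63 and 0.48 for heavy chains, 0.04 and 0.07 for radial spokes and 0.04 and 0.17 for tektins, and 54 of the 63 genes were above WT in each mutant (all genes 46.9% and 47.0%).

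Among the heavy chains, Dnah8 was at 131 CPM in RS-like cells of WT, 247 in KO and 217 in KI, a log2 ratio of 0.91 (0.82 to 1.01) and 0.72 (0.62 to 0.83). Dnah12, an inner arm heavy chain, was at 52.0, 113 and 114 CPM, a log2 ratio of 1.11 and 1.12. Dnah7a was at 86.8, 181 and 188 CPM and Dnah5, an outer arm heavy chain best known from motile cilia, at 13.3, 31.5 and 33.5 CPM. In each of these genes both mutants were above WT and close to each other. Dnah8 was at background in RS-like cells of each library, with 0.961 (WT), 1.24 (KO) and 2.88 (KI) UMIs per cell beside 1.35, 2.95 and 3.63 in Sertoli-like cells. In cluster 7 of KO, Dnah8 gave 2.27 UMIs per cell beside 2.95 in Sertoli-like cells, and Dnah12 0.708 beside 0.658. In RS-like cells of KO, Dnah12 gave fewer UMIs per cell than this 0.658, so its KO level there is at background too.

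Dnah11, like Dnah5 and Dnah9 an outer arm heavy chain of motile cilia, was under the minimum of 5 CPM in WT and entered the comparison only through the mutants, so its ratio carries no rank among the members. It was at 2.11 CPM in RS-like cells of WT (24 UMIs), 16.5 in KO (135 UMIs) and 20.8 in KI (132 UMIs), a log2 ratio of 2.49 (2.01 to 2.96) and 2.81 (2.32 to 3.27). In SP-like cells it gave 6, 9 and 6 UMIs. In cluster 2 it was at 11.2 (WT), 54.3 (KO) and 88.7 CPM (KI) from 13, 62 and 64 UMIs, and in cluster 7 at 0.983, 11.5 and 13.5 CPM from 9, 59 and 64 UMIs. In empty barcodes its ratio to WT was 0.967 in KO and 1.11 in KI. It gave 0.0155 (WT), 0.0828 (KO) and 0.276 (KI) UMIs per RS-like cell beside 0.00508, 0.00778 and 0.0122 in Sertoli-like cells. These are few UMIs, the part of free RNA was not tested, and Dnah11 is overlapped on the opposite strand by Cdca7l.

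Rsph1 was at 336 CPM in RS-like cells of WT, 789 in KO and 620 in KI, a log2 ratio of 1.23 (1.17 to 1.28) and 0.88 (0.81 to 0.94). It gave 2.47 (WT), 3.95 (KO) and 8.24 (KI) UMIs per RS-like cell, under the 7.44, 10.8 and 16.4 of a Sertoli-like cell. All 3 levels are thus at background, and their ratios are uncertain. In cluster 7 it gave 4.96, 11.6 and 23.4 UMIs per cell, above the Sertoli-like cells in the mutants and under them in WT. Cfap70, a protein of the outer arm, was at 57.1, 147 and 137 CPM, a log2 ratio of 1.34 (1.21 to 1.48) and 1.25 (1.10 to 1.40). It gave 0.420 (WT), 0.733 (KO) and 1.82 (KI) UMIs per RS-like cell beside 0.320, 0.646 and 0.951 in Sertoli-like cells, so KO was only a little above background. In cluster 7 it gave 0.743, 2.62 and 5.08 UMIs per cell. Dnaaf5, an assembly factor, was at 2.91, 9.80 and 9.13 CPM from 33, 80 and 58 UMIs. It too passed the minimum only through the mutants, and its UMIs per RS-like cell were under those of Sertoli-like cells in each library. Drc1 was at 58.2, 108 and 95.2 CPM and Cfap20 at 51.9, 111 and 93.5 CPM. Cfap20 was at background in RS-like cells, with 0.382 (WT), 0.556 (KO) and 1.24 (KI) UMIs per cell beside 0.797, 1.13 and 1.45 in Sertoli-like cells.

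Dnaaf1 (362, 522 and 531 CPM in WT, KO and KI), Cfap36 (595, 817 and 841 CPM) and Tekt1 (440, 609 and 640 CPM) had ratios nearer to that of all genes, between 0.46 and 0.55 on the log2 scale. Tekt2 was at 493, 705 and 777 CPM, Tekt3 at 133, 220 and 237 CPM and Tekt4 at 403, 546 and 579 CPM. Dnali1 was at 340, 361 and 387 CPM, a log2 ratio of 0.09 and 0.19, which is below the median of all genes, and with TMM scaling its ratio was −0.34 and −0.19. Rsph10b was at 44.0, 78.1 and 68.9 CPM and Rsph3b at 18.8, 24.3 and 20.8 CPM. Cfap69, at 264, 315 and 366 CPM, was above WT in KO but stood at −0.17 on the log2 scale with TMM.

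Tekt5 was the only gene below WT in both mutants. It was at 120 CPM in RS-like cells of WT (1364 UMIs), 56.5 in KO (461 UMIs) and 92.2 in KI (586 UMIs), a log2 ratio of −1.08 (−1.23 to −0.92) in KO and −0.38 (−0.52 to −0.24) in KI. In cluster 7 alone it was at 128, 68.6 and 102 CPM. In ES-like cells the order was the other way, with 45.5 CPM for WT, 125 for KO and 286 for KI. The member with the latest onset in WT was thus lower than WT in RS-like cells of both mutants and higher in their ES-like cells. Without integration its RS-like ratio stood at −0.15 (KO) and 0.52 (KI), so the lower level in KI depends on how the cells were grouped. Cfap126 was the one other gene below WT in KO, with 306 (WT), 283 (KO) and 306 CPM (KI).

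The RS-like class is made of 3 clusters that differed. Cluster 7, with the most UMIs per cell, held 482 of the 1544 WT, 243 of the 1631 KO and 109 of the 478 KI cells. There 61 genes passed, with a median log2 ratio of 0.72 in KO and 0.89 in KI (all genes 0.33 and 0.34), and 14 were at least 2-fold higher in KO (23.0%, with 14.4% of all genes) and 23 in KI (37.7%, with 16.6% of all genes). In either mutant 0 were 2-fold lower (background 5.23% in KO and 7.45% in KI). Cluster 7 gave 131 (WT), 224 (KO) and 487 (KI) UMIs of the 67 genes per cell, above the Sertoli-like cells in each library. Cluster 2 gave 16.2, 21.2 and 34.0, all under them. In cluster 2 medians were 0.61 and 0.40 (all genes 0.14 and 0.06), so the margin over all genes in KO was 0.47 there and 0.39 in cluster 7. In cluster 4, which was led partly by mitochondrial transcripts, they were −0.00 and 0.12 (all genes −0.00 and 0.02), with 31 of 63 genes above WT in KO and 46 in KI (all genes 50% and 52%). Cluster 4 held 408 of the WT, 734 of the KO and 128 of the KI cells of the class. Its 67 axoneme genes summed to 16179 (WT), 16311 (KO) and 18013 CPM (KI), where cluster 7 held 6894, 10621 and 11176. Without cluster 4 the RS-like medians were 0.767 (KO) and 0.801 (KI). Its name rested on 4 markers higher than in other cells, with a mean standardised marker level of 0.83 for round spermatids and 0.67 for late spermatocytes, and with another clustering seed or gene order at least 1169 of its 1270 cells went unnamed. Of these clusters, cluster 7 thus held the higher level in both mutants with summed UMIs per cell above background. In cluster 2 the summed UMIs per cell were at background in each library, although the KO ratios stood further above all genes than in cluster 7. In cluster 3, the class before, the medians were 0.18 and 0.22.

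Other measures moved with this result. The 10 markers of elongated spermatids summed to 56550 CPM in RS-like cells of WT, 10710 in KO and 8065 in KI, and to 66110, 14190 and 9622 CPM in cluster 7, with all 10 detected in each library. The 10 late spermatocyte markers went the other way, with 253, 603 and 451 CPM in RS-like cells. Median pseudotime in cluster 7 was 0.848 (WT), 0.837 (KO) and 0.839 (KI). On the same scale WT stood at 0.804 in cluster 3 and 0.877 in cluster 1. When only RS-like cells with under 1% of their UMIs from elongated spermatid markers were kept, which left 542 of 1544 WT, 1408 of 1631 KO and 419 of 478 KI cells, the axoneme genes had a median log2 ratio of 0.34 (KO) and 0.18 (KI), beside 0.18 and 0.08 over all genes, and 2 genes in KO and 2 in KI were at least 2-fold higher (all genes 6.83% and 5.49%). The RS-like cells of WT thus held more elongated spermatid transcripts than those of either mutant, and the part of this in the axoneme result was not tested beyond these values. WT was also the highest outside spermatids. The same markers summed to 2867 (WT), 336.8 (KO) and 163 CPM (KI) in pachytene-like cells, and to 37930, 8089 and 27680 CPM in Sertoli-like cells. The marker level and the 1% limit are thus not a measure of spermatid stage alone, and the part of free RNA in them was not tested. In empty barcodes the median log2 ratio was 0.53 in KO and 0.43 in KI (all genes 0.23 and 0.25), so the free RNA differed in the same direction, and its part in the RS-like result was not tested.

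The direct comparison of KI with KO in RS-like cells gave a median log2 ratio of −0.03 over the 63 genes and of −0.03 over all genes. Of the 63 genes 30 were higher in KI and 33 lower, and 0 were 2-fold apart in either direction (background 0.402% higher and 1.98% lower in KI). The range ran from −0.75 for Dnah2 to 0.70 for Tekt5. All 5 tektins were higher in KI, with a median of 0.11.

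**Figure D4:**
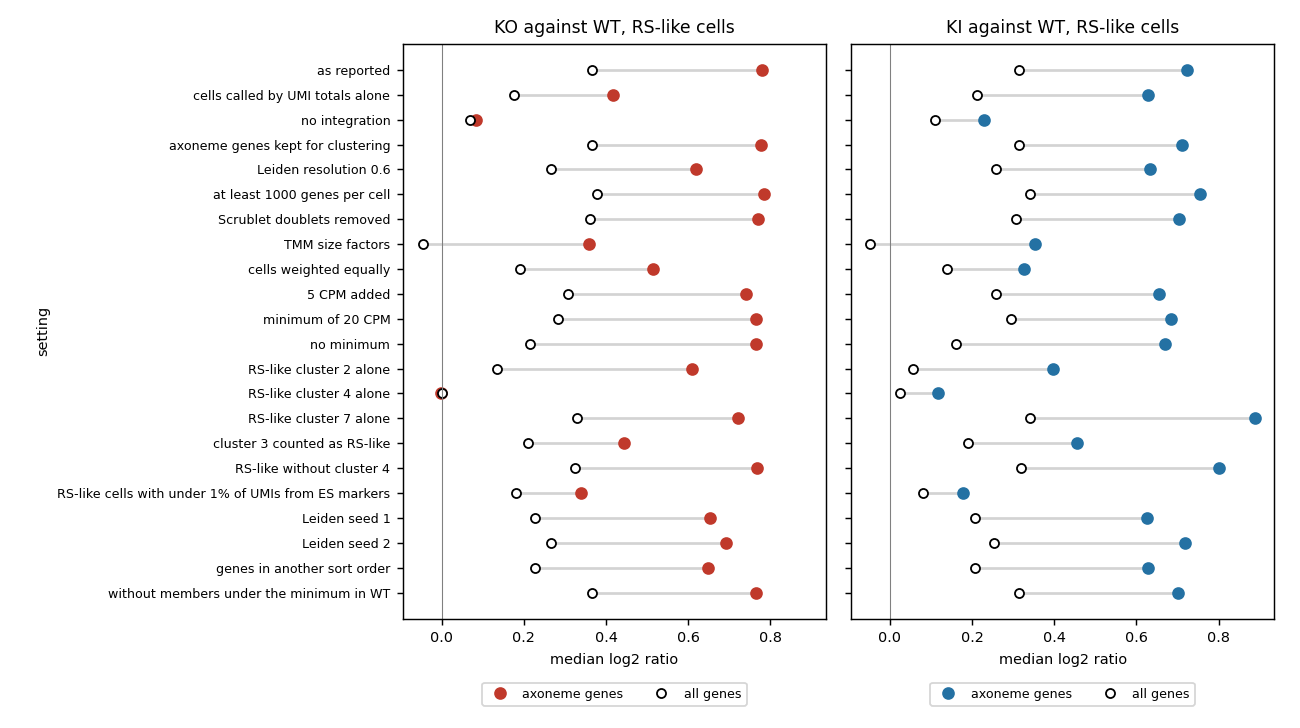
Median log2 ratio to WT in RS-like cells of the axoneme genes (filled) and of all genes tested (open) under each processing setting, for KO and KI. The filled point lies to the right of the open one in every setting but cluster 4 alone in KO, and it lies nearest to 0 for cluster 4 alone in both mutants, followed by no integration in KO (0.08) and by the 1% limit on elongated spermatid markers in KI (0.18).

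Of the related lists, other axoneme genes had medians near those of the members in RS-like cells, and transport genes and transcription factors lower ones. Of 40 other axoneme genes (such as Ccdc39, Hydin and Spag17) 39 passed, with a median log2 ratio of 0.81 in KO and 0.76 in KI, and 12 were at least 2-fold higher in KO (30.8%, with 14.7% of all genes) and 2 in KI (5.13%, under the 10.5% of all genes). Ccdc39, a ruler of the doublet repeat, was at 60.7 (WT), 141 (KO) and 111 CPM (KI) and Hydin of the central pair at 138, 246 and 223 CPM. Ropn1, a flagellar partner of kinase anchoring proteins, was among the lower ones, with 1124, 712 and 727 CPM. The 14 intraflagellar transport genes, which carry axoneme parts to the growing tip, had medians of 0.59 and 0.54 and ranged from −0.48 and −0.87 for Ift172 to 1.32 for Ift52 in KO and 1.63 for Ift46 in KI. Of the 11 transcription factors 10 passed, with medians of 0.32 and 0.34, at the level of all genes. Foxj1, a factor of motile cilia genes, was at 33.3, 59.3 and 60.9 CPM and Rfx2, a factor that binds the X-box in spermatids, at 41.3, 61.7 and 57.3 CPM. Mcidas, a switch of multiciliated cells, was at or near 0 in all libraries, with 0.122 CPM in RS-like cells of KO.

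Limits of the counting bear on single genes. Of the 67 genes 39 are overlapped by a gene on the opposite strand and 11 by one on the same strand, as Rsph10b is by Pms2, and the counts of such genes may hold reads of both. The assay reads 3' ends, so CPM are set side by side between classes and libraries within a gene, and not between genes.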

How the data were processed

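Single-cell 3' UMI counts were analysed as deposited, as raw gene by barcode matrices. Per the labels and their processing notes, the authors made these counts with Cell Ranger 2.1.1 on mm10 from 1 mouse per library, whereas the matrix headers name a later Cell Ranger and the study's methods pooled testes, so the version is uncertain. Cells were called against empty barcodes (FDR 0.01) and kept with over 500 genes and under 10% mitochondrial UMIs. They were normalised with sctransform 0.4.2 and integrated with Seurat 5.3.0 on 2000 variable genes without the axoneme genes, and clustered with leidenalg 0.10.2 (100 components, resolution 0.3) in scanpy 1.11.5. Doublets marked by Scrublet were kept and were removed as an alternative. UMIs were summed per class and library and given as CPM. Log2 ratios add 1 CPM and were computed on genes with a mean of at least 5 CPM. Exact Poisson intervals cover counting error only. With 1 library per genotype no count model or p-value was used, although edgeR 4.0.16 gave the TMM factors. Genes named are those the study names, the member of each subfamily with most UMIs, the earliest onsets, the largest shares in ES-like cells, the highest and lowest ratios to WT, and the tektins. Dnah3, Dnah9, Dnah14, Dnah17, Cfap100, Cfap126 and genes named for a shifted peak were chosen after their values were seen. The members and lists were chosen with earlier results of these data known. Calling, clustering, scaling, minimum levels and class borders were varied, with 6 alternatives added after seeing the data.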

Additional observations from a re-analysis of the deposited data

Results flagged for a closer look

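Tekt5 stood out in SP-like cells because the mutants lay on opposite sides of WT, with a log2 ratio of −1.07 in KO and 0.728 in KI. Both counting intervals were clear of 0. With 1 library per genotype the difference between the mutants was not tested.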

How the results depend on the processing

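No paired analysis was possible because each genotype had 1 library, and for the same reason no library could be left out. The RS-like median of the axoneme genes (log2 ratio, KO then KI) was 0.416 and 0.629 with cells called by UMI totals alone, 0.0822 and 0.23 without integration, 0.618 and 0.632 at resolution 0.6, 0.358 and 0.352 with TMM, and 0.515 and 0.326 with cells weighted equally. It was 0.61 and 0.397 in cluster 2 alone, −0.00127 and 0.117 in cluster 4 alone and 0.721 and 0.888 in cluster 7 alone. Under the alternatives chosen after seeing the data it was 0.444 and 0.456 when cluster 3 was added to the RS-like class, 0.767 and 0.801 without cluster 4, and 0.338 and 0.178 in cells with under 1% of UMIs from elongated spermatid markers. With Leiden seed 1, seed 2 and another gene sort order it was 0.652, 0.692 and 0.647 in KO. In these 3 settings 1169, 1179 and 1169 of the 1270 cells of cluster 4 were unnamed and so left the RS-like class.

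Genes at least 2-fold higher in KO, 19 as reported, numbered, with the share of all genes in parentheses, 2 by UMI totals (5.41%), 1 without integration (7.07%), 3 at resolution 0.6 (6.87%), 2 with TMM (4.33%), 4 with equal cells (7.84%), 12 with 5 CPM added (6.30%), 10 in cluster 2 (13.6%), 0 in cluster 4 (4.07%), 1 with cluster 3 included (3.12%), 2 under the 1% limit (6.83%), and 11 with seed 1 and with the other sort order (10.5% with the latter). In KI, 9 as reported, they numbered 5 by UMI totals (7.68%), 1 without integration (6.05%), 5 at resolution 0.6 (7.59%), 2 with TMM (3.76%), 3 with equal cells (7.51%), 5 in cluster 2 (11.8%), 2 in cluster 4 (5.51%), 23 in cluster 7 (16.6%), 3 with cluster 3 included (3.34%), 14 without cluster 4 (14.3%) and 2 under the 1% limit (5.49%). The axoneme share was thus under that of all genes in both mutants without integration, with TMM, with equal cells, in cluster 4 and under the 1% limit, in KO also by UMI totals, at resolution 0.6 and with cluster 3 included, and in KI also in cluster 2. The 1 gene at least 2-fold lower in KO, Tekt5, became 0 by UMI totals, without integration, in clusters 2, 4 and 7 alone, without cluster 4, under the 1% limit, with seed 1 and with the other sort order. In cluster 4 alone the KO median of heavy chains was −0.0578 and the KO ratio of Dnah7a −0.154, both on the other side of 0. In SP-like cells the KI median was −0.0234 in cluster 13 alone. Genes of WT whose ES-like level exceeded the RS-like one, 1 as reported, numbered 2 by UMI totals, 11 with TMM and 2 under the 1% limit. Genes of WT higher in RS-like than in SP-like cells, not counted above, numbered 22 with the main settings. They numbered 8 by mean UMIs per cell and 43 in cluster 4 alone. No share of all genes stands beside these counts, so they are not read as a trait of the axoneme genes. The cause of these shifts was not tested. Subfamily medians above that of all genes, 7 of 7 as reported, numbered 5 (KO) and 6 (KI) without integration, 5 in KO in cluster 4, 6 in KI with equal cells and in cluster 2, and 6 in KO under the 1% limit.

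Under every alternative run in RS-like cells, the ratio of Dnah5 was between 0.534 and 1.31 in KO and between 0.771 and 1.81 in KI. That of Tekt5 in KO was between −1.50 and −0.149. In KI Tekt5 ran from −0.749 to 0.52, with the other sign under 2 of 21 alternatives. Other ratios came close to 0 under some alternative. The lowest of Dnah8 was 0.0651 (KO) and 0.226 (KI), of Dnah12 0.0188 and 0.304, and of Rsph1 0.196 and 0.0714. That of Cfap70 was 0.101 and 0.241, of Dnaaf1 0.0399 and 0.0149, and of Tekt1 0.0427 and 0.0916. For Tekt2 it was 0.0914 and 0.0914, and for Tekt4 0.0133 and 0.0123. It was 0.0189 in KO for Cfap20, and in KI 0.0188 for Dnah7c, 0.0366 for Rsph10b and 0.0937 for Cfap69. Some fell below 0. In KO the lowest was −0.21 for Cfap36, −0.206 for Cfap69, −0.154 for Dnah7a, −0.285 for Dnah7c and −0.338 for Dnali1. It was −0.179 for Rsph10b and −0.376 for Rsph3b. In KI the lowest was −0.44 for Cfap20, −0.0577 for Cfap36, −0.442 for Dnali1, −0.0362 for Drc1 and −0.447 for Rsph3b. Genes with few UMIs in RS-like cells, such as Dnah11 and Dnaaf5, are limited by counting.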
